A study of Homo sapiens with 12 samples.

Results

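The response of TGF-β1-treated airway epithelial cells to dexamethasone was read from 6 of the 12 libraries of the series, 3 from cells given TGF-β1 and then dexamethasone and 3 from cells given TGF-β1 alone. In the first group BEAS-2B cells received TGF-β1 at 40 pM for 24 h and then dexamethasone at 30 nM for 4 h. The second group received TGF-β1 at 40 pM for 24 h and no dexamethasone. The times do not show whether both groups were harvested at the same hour. Any added hours in the first group cannot be told apart from dexamethasone. The 6 other libraries, 3 with dexamethasone alone at 30 nM for 4 h and 3 untreated controls, entered the same statistical fit and are used to compare the 2 dexamethasone effects. All cells had been held for 24 h without serum and steroid before treatment, and the labels give no vehicle. The question was how a glucocorticoid acts on cells that TGF-β1 has already changed. The genes described are all those that passed a filter on low counts, 13469 of the 28395 identifiers in the table, and the test was fitted on all of them.

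BEAS-2B was derived from human bronchial epithelium and immortalised with viral genes, so all libraries come from 1 cell line and the 3 libraries of a group are repeats of a culture, not different donors. One field of the labels, on growth, speaks of A549 cells, a lung cancer line, while the rest speak of BEAS-2B. Dexamethasone is a synthetic glucocorticoid. It binds the glucocorticoid receptor in the cytoplasm, where chaperones hold the receptor ready, and the bound receptor enters the nucleus and raises or lowers the transcription of genes near its binding sites. It raises genes that curb inflammation and MAP kinase signalling and lowers cytokines, partly by acting on the factors AP-1 and NF-κB. TGF-β1 acts through SMAD proteins and drives matrix production and epithelial-mesenchymal change in airway epithelium, where both agents are of interest for asthma and airway scarring.

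The 6 libraries held 6085495 to 7008203 counts in replicates 1 and 2 and 17968961 to 19039860 in replicate 3, so that replicate 3 of both groups was read more deeply. The first principal component of the 6 libraries carried 50.4% of the variance and separated the libraries with dexamethasone from those without. The second carried 25.3% and set replicate 2 of both groups apart from replicates 1 and 3. Libraries of the same replicate number deviated together, and the number was therefore a block in the fit (edgeR's quasi-likelihood test, Benjamini-Hochberg adjustment over all 13469 genes). FN1, which encodes fibronectin, took 1.81 to 2.63% of the counts with dexamethasone and 1.43 to 2.12% with TGF-β1 alone. All 14 markers of bronchial epithelium in the list used passed the count filter, among them KRT5, KRT8 and KRT17. Their summed level in the 6 libraries was 3830 to 8930 CPM without TMM scaling. The filter was set over all 12 libraries, and passing it does not identify the line. Some markers of other cells had no read in the 6 libraries: SCGB1A1, SCGB3A2, BPIFA1 and SNTN of secretory and ciliated cells and the liver-type gene FGA of A549 cells. Of the alveolar type 2 and A549 markers 4 of 15 passed the count filter, with a summed level of 3.67 to 10.2 CPM without TMM scaling. Of the other lists 2 of 10 fibroblast, 2 of 12 secretory and ciliated, 3 of 11 leukocyte and 5 of 10 endothelial markers passed it. Which of the 2 lines was used was not tested. Levels below are CPM (counts scaled to library size with TMM factors) for replicates 1, 2 and 3 in that order, with n = 3 libraries a group. "Both agents" stands for TGF-β1 + dexamethasone. Effects are log2 fold changes of TGF-β1 + dexamethasone over TGF-β1 alone, so that 1 is a doubling, given ± SE. An RNA level of a culture cannot tell more responding cells from more RNA per cell.

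In TGF-β1-treated cells dexamethasone raised 1275 genes and lowered 1078 past an adjusted p of 0.05. These were 9.47% and 8% of the 13469 genes tested, 17.5% together. Changes of at least 2-fold were fewer and leaned upwards, with 375 genes higher (2.78% of those tested) and 186 lower (1.38%). The lean grew with size, since 121 genes rose and 28 fell by at least 4-fold, 48 rose and 8 fell by at least 8-fold, and 20 rose and none fell by at least 16-fold. The median log2 fold change over all genes was -0.0104. Without the replicate block the test called 686 genes higher and 406 lower, and with library size alone in place of TMM scaling 40.7% of calls were higher in place of 54.2%. Without replicate 1 of every group 817 genes were called higher and 535 lower, and without replicate 3 of every group 944 and 609.

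**Figure D1:**
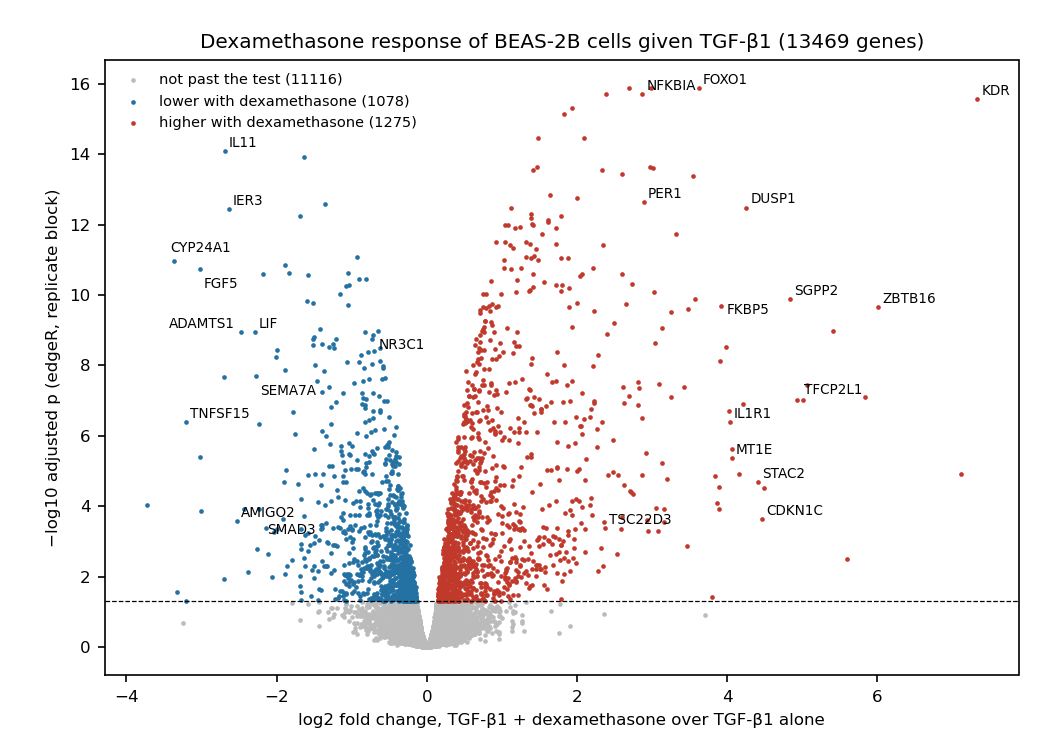
Each point is a gene, with the log2 fold change of TGF-β1 + dexamethasone over TGF-β1 alone on the x axis and −log10 of the adjusted p on the y axis; red points rose (1275 genes), blue points fell (1078 genes), grey points did not pass the test, and the dashed line marks an adjusted p of 0.05. The rises reach further from 0 than the falls, with KDR at a log2 fold change of 7.33 and CYP24A1 at -3.37.

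Genes of the glucocorticoid receptor and its machinery moved in both directions. NR3C1, the gene of the receptor, stood at 118, 149.7 and 133 CPM with TGF-β1 + dexamethasone, against 194, 248 and 221 CPM with TGF-β1 alone. It fell by 0.72 on the log2 scale (SE 0.05, adjusted p = 1.36e-09 by edgeR), and every library with dexamethasone was below every library without. Of the 27 tested members of the receptor machinery, 4 rose and 5 fell, 33.3% against 17.5% of all genes tested, with a median log2 fold change of -0.05. The coactivator NCOA3 rose by 0.63 ± 0.06. Among the chaperones DNAJB1, an HSP40 family member, rose by 0.36 ± 0.06, and FKBP4, the cochaperone that favours transport of the receptor to the nucleus, had a log2 fold change of -0.23. HDAC2, a histone deacetylase linked to the repressive action of the receptor, fell by 0.26 (SE 0.05). The cytosolic chaperones HSP90AA1 (-0.12) and HSPA8 (0.03) and the coactivators NCOA1 (-0.13), CREBBP (-0.05) and EP300 (0.04) did not pass the test. Without the block 3 members rose and 2 fell, and the rise of CAV1 and the falls of DNAJA1, FKBP4 and HSP90AB1 were lost. The falls numbered 3 without replicate 2 or 3 of TGF-β1 + dexamethasone or replicate 1 of every group, and 2 without replicate 3 of every group.

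Among the 10 largest rises were KDR, ZBTB16, TFCP2L1, SGPP2, CDKN1C, STAC2, DUSP1, MT1E and IL1R1, chosen by the size of this change among called protein-coding genes whose log2 CPM averaged 1 or more and with no overlap between the groups, so that their values and the gap between the groups are a description. KDR, which encodes the VEGF receptor best known from endothelium, was nearly absent with TGF-β1 alone: it stood at 85.6, 136 and 87.3 CPM with TGF-β1 + dexamethasone, against 0.701, 0.464 and 0.617 CPM with TGF-β1 alone (log2 fold change 7.33 ± 0.17, adjusted p = 2.69e-16). Of the other endothelial markers CDH5 (-1.04), ROBO4 (-0.53), PECAM1 (-0.42) and EGFL7 (0.13) did not pass the test, and the summed level of the 10 endothelial markers, in CPM without TMM scaling, was 86.8 to 138 with dexamethasone and 13.3 to 15.9 with TGF-β1 alone. KDR carried this rise: the 9 other markers summed to 9.86 to 12.2 with dexamethasone and 12.9 to 15.3 with TGF-β1 alone. ZBTB16, a zinc-finger repressor and one of the most responsive glucocorticoid targets, had 77.3, 81.6 and 85.1 CPM with dexamethasone after TGF-β1 and 0.876, 0.464 and 1.74 CPM with TGF-β1 alone (log2 fold change 6.01 ± 0.21, adjusted p = 2.16e-10). In both genes the lowest library with dexamethasone was far above the highest without it, and replicate 2 was the highest of the dexamethasone libraries for KDR.

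TFCP2L1, a grainyhead-related transcription factor, was at 96.9, 190.2 and 109.8 CPM with TGF-β1 + dexamethasone and at 5.43, 3.09 and 3.93 CPM with TGF-β1 alone (log2 fold change 4.93 ± 0.19, adjusted p = 9.61e-08). SGPP2, a phosphatase that removes the phosphate of sphingosine 1-phosphate, was at 154, 183 and 146 CPM with both agents, against 5.08, 3.56 and 6.34 CPM with TGF-β1 alone (log2 fold change 4.84 ± 0.14, adjusted p = 1.33e-10). STAC2, an adaptor of calcium channels, was at 168, 177 and 169 CPM with both agents, against 9.11, 2.94 and 10.2 CPM with TGF-β1 alone (log2 fold change 4.40 ± 0.25, adjusted p = 2.11e-05). The 3 dexamethasone libraries of STAC2 were close together, whereas replicate 2 was the lowest with TGF-β1 alone. CDKN1C, an inhibitor of cyclin-dependent kinases, was at 81.5, 270.1 and 67.5 CPM with both agents, against 3.85, 9.43 and 3.98 CPM with TGF-β1 alone (log2 fold change 4.46 ± 0.37, adjusted p = 0.000238), with replicate 2 the highest in both groups. IL1R1, the signalling receptor of interleukin 1, was at 149, 250.4 and 143 CPM with both agents, against 10.5, 12.8 and 9.14 CPM with TGF-β1 alone (log2 fold change 4.03 ± 0.18, adjusted p = 4.04e-07). None of these 5 genes overlapped between the groups. Over all genes tested, 11% had their 3 dexamethasone libraries above all 3 libraries of TGF-β1 alone and 9.98% had them below.

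**Figure D2:**
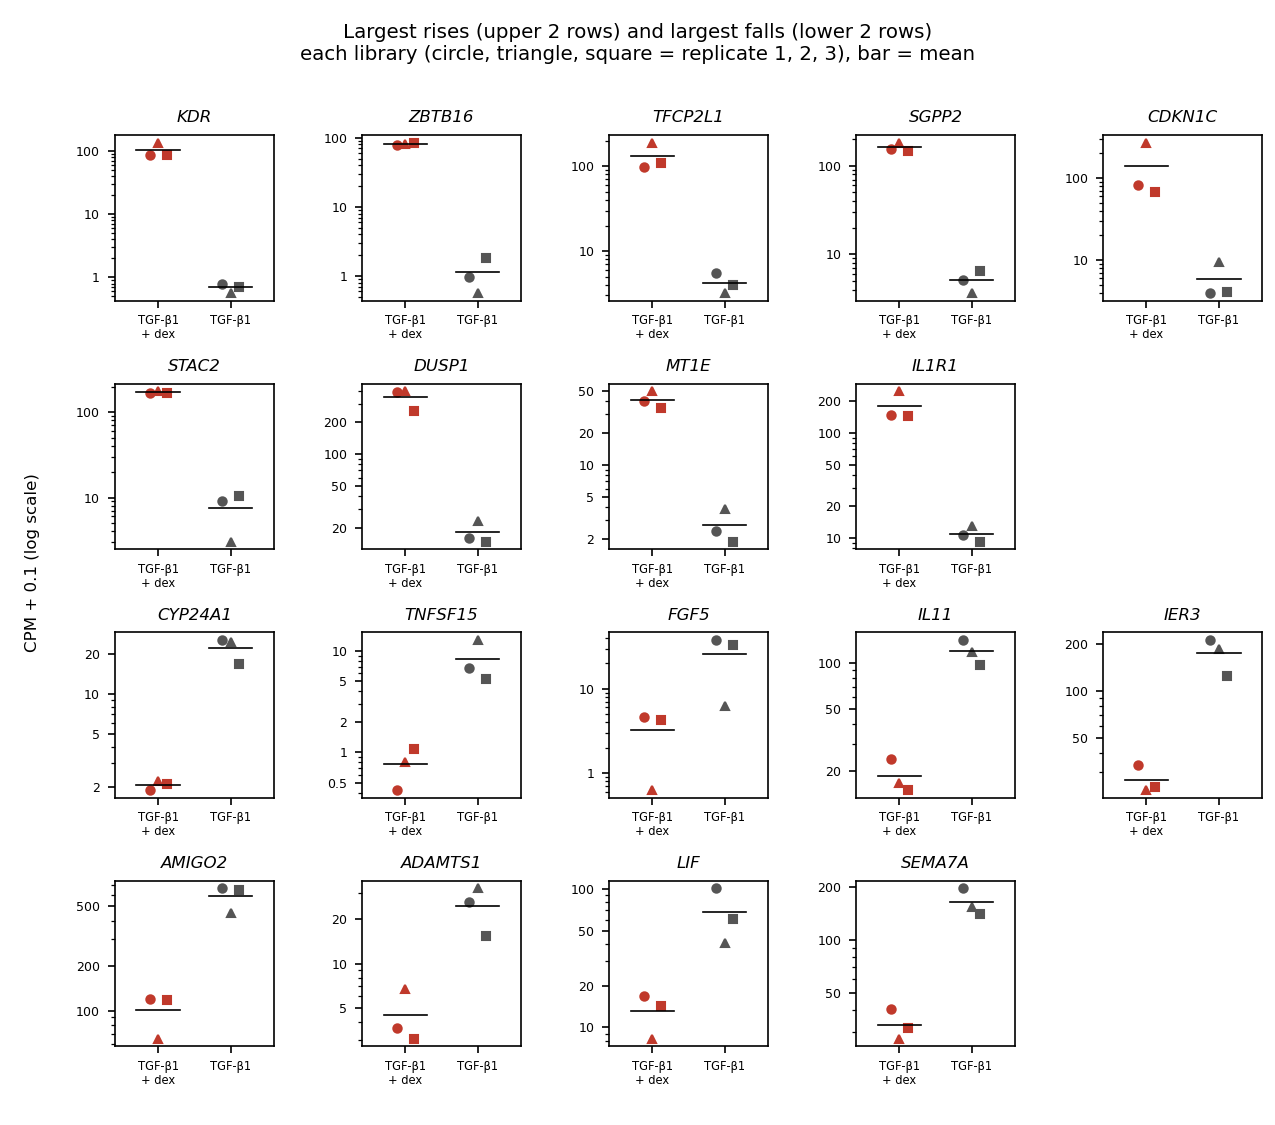
Each panel is a gene with CPM + 0.1 on a log axis, TGF-β1 + dexamethasone on the left in red and TGF-β1 alone on the right in grey; circle, triangle and square are replicates 1, 2 and 3 and the bar is the mean. In all 18 genes shown, as the choice of genes required, the 3 libraries of a group lie on one side of the other group, for example 85.6, 136 and 87.3 CPM with both agents and 0.701, 0.464 and 0.617 CPM with TGF-β1 alone for KDR.

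Genes known as glucocorticoid targets rose almost throughout: 29 of the 34 tested members rose and 1 fell, against 9.47% and 8% of all genes, with a median log2 fold change of 2.06 against -0.0104 over all genes. FKBP5, the cochaperone that holds the receptor in its low-affinity state and is a standard readout of glucocorticoid action, stood at 1326, 1721 and 1371 CPM with TGF-β1 + dexamethasone, against 90.6, 98.2 and 104 CPM with TGF-β1 alone (log2 fold change 3.91 ± 0.10, adjusted p = 2.07e-10). TSC22D3, which encodes the leucine-zipper protein GILZ, had 278, 312 and 223 CPM with dexamethasone after TGF-β1 and 59.8, 37.3 and 56.3 CPM with TGF-β1 alone (log2 fold change 2.37 ± 0.22, adjusted p = 0.000413). The groups of both genes did not overlap. FOXO1, a forkhead factor of fasting metabolism, rose to 207, 156 and 222 CPM with both agents, against 17.5, 11.6 and 18.2 CPM with TGF-β1 alone (log2 fold change 3.62 ± 0.09, adjusted p = 1.32e-16). KLF9, a Krüppel-like factor, rose to 132, 118 and 167 CPM with both agents, against 37.3, 25.5 and 53.3 CPM with TGF-β1 alone (log2 fold change 1.84 ± 0.11, adjusted p = 4.06e-07). PIK3R1, a regulatory subunit of PI 3-kinase, rose by 2.39, SERPINA3, an acute-phase protease inhibitor, by 3.15, and the thiamine transporter SLC19A2 by 2.17 on the log2 scale. CRISPLD2, a secreted protein studied as a glucocorticoid target in asthma, stood at 18.5, 36.7 and 12.5 CPM with dexamethasone and 7.53, 12.5 and 3.70 CPM with TGF-β1 alone (log2 fold change 1.56 ± 0.24, adjusted p = 0.000772), and here the groups overlapped, since replicate 2 was the highest in both; without the block its adjusted p was 0.0694. The falls numbered 2 without replicate 2 of TGF-β1 + dexamethasone, replicate 3 of TGF-β1 alone or replicate 2 of every group. The list's exceptions were TSC22D1, which fell by 0.36 (adjusted p = 7.67e-05), and EDN1 (-0.45), ANXA1 (-0.21), SESN1 (0.17) and STEAP4 (1.10), which did not pass the test.

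Metallothioneins, which bind zinc and copper, rose together: 5 of 6 tested members of the list passed the test upwards, against 9.47% of all genes tested. MT1E was at 39.7, 49.6 and 34.5 CPM with TGF-β1 + dexamethasone, against 2.28, 3.71 and 1.79 CPM with TGF-β1 alone (log2 fold change 4.06 ± 0.28, adjusted p = 4.27e-06). MT1X was at 90.7, 68.6 and 122 CPM with both agents, against 23.7, 18.6 and 26.1 CPM with TGF-β1 alone (log2 fold change 2.06 ± 0.10, adjusted p = 2.47e-11). MT1M rested on few reads, 101 with dexamethasone against 3 without over the 3 libraries, a ratio of 35.6 with an exact 95% counting interval of 11.8 to 176. MT1F rose by 1.59 and MT2A by 1.58, and MTF1, the zinc-sensing factor that drives these genes, had a log2 fold change of 0.02 and did not pass the test. The MT1 genes are near-identical copies, so the counting may have split their reads, and 3 of the 5 calls held without replicate 3 of every group.

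Of 19 clock genes 6 rose and 2 fell, 42.1% of the list against 17.5% of all genes tested. PER1, a repressor of the circadian clock and a direct glucocorticoid target, stood at 323, 317 and 274 CPM with TGF-β1 + dexamethasone, against 39.6, 45.8 and 38 CPM with TGF-β1 alone (log2 fold change 2.89 ± 0.08, adjusted p = 2.24e-13). NPAS2, an activating partner of BMAL1, was at 15.9, 12.4 and 17.3 CPM with both agents, against 8.06, 5.72 and 8.97 CPM with TGF-β1 alone (log2 fold change 0.98 ± 0.14, adjusted p = 2.55e-05). NFIL3 rose by 0.67 and CSNK1D, a kinase that marks PER proteins, by 0.40. The core activators BMAL1 (-0.23) and CLOCK (-0.10), and PER2 (0.25) and PER3 (-0.03), did not pass the test. BHLHE40, a clock repressor, fell by 0.47 (SE 0.06), with overlapping groups and a fall that was lost without the block (adjusted p = 0.395). The fall of CRY1 (-0.27) was lost without the block and in 7 of the 9 settings that left out libraries, all but those without replicate 3 of TGF-β1 + dexamethasone or of every group (adjusted p up to 0.308).

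The list of NF-κB subunits and feedback inhibitors, with decay factors of cytokine messages, divided by member. Of its 21 tested genes 7 rose and 6 fell, 61.9% against 17.5% of all genes tested, with a median of -0.00. NFKBIA encodes IκBα, which holds NF-κB in the cytoplasm. It stood at 131, 192 and 99.8 CPM with TGF-β1 + dexamethasone, against 19.8, 21.2 and 15 CPM with TGF-β1 alone (log2 fold change 2.87 ± 0.08, adjusted p = 1.97e-16), and replicate 2 was the highest in both groups. ZFP36, which encodes tristetraprolin and destabilises AU-rich messages, was at 52.8, 51.9 and 47.6 CPM with both agents, against 12.3, 6.80 and 12.3 CPM with TGF-β1 alone (log2 fold change 2.21 ± 0.14, adjusted p = 1.06e-08). BIRC3, an inhibitor of apoptosis that also acts in TNF receptor signalling, was low in all libraries at 1.78, 5.05 and 2.74 CPM with both agents, against 0.350, 0.618 and 0.617 CPM with TGF-β1 alone (log2 fold change 2.41 ± 0.34, adjusted p = 1.33e-05). ZFP36L2 (1.93), IRAK3 (1.89), which blocks Toll-like receptor signalling, and TNFAIP3 (0.87), which encodes the A20 brake, rose as well. The members that fell were BCL3 (-1.11), NFKBIZ (-0.83), NFKBIE (-0.67), RELB (-0.61), CYLD (-0.43) and ZFP36L1 (-0.26). Of these BCL3 and NFKBIZ encode atypical, nuclear IκB proteins, and RELB encodes a subunit of NF-κB. The other subunits, RELA (0.05), NFKB1 (-0.09), NFKB2 (-0.14) and REL (0.08), did not pass the test. The fall of NFKBIE was lost without replicate 1 of TGF-β1 alone or of every group (adjusted p up to 0.0935), and those of RELB and ZFP36L1 were lost without the block, as was the rise of BIRC2 (0.61).

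The NFKBIA promoter is shown as an example of a gene that rose and has an NF-κB match in its window, and NFKBIA is itself a target of NF-κB. The window, chr14:35404700-35404999 (GRCh38.p14, minus strand, from RefSeq), runs from 250 bases before to 50 after the start. The capitals mark a match to the NF-κB letters, GGGA and TTCC spaced 2 bases apart, read here on the other strand, whose first base lies 81 bases before the start.
NFKBIA: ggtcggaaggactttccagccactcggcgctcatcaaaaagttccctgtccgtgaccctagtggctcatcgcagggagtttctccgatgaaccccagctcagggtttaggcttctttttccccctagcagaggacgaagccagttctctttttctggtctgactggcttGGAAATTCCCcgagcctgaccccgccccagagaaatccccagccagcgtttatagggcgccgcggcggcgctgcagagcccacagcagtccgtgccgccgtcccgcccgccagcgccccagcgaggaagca

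Of 33 inflammatory mediators in the list 18 passed the count filter and were tested. Of these 9 fell and 4 rose, 72.2% against 17.5% of all genes tested, with a median of -0.49. IL11, an IL-6-type cytokine known as a TGF-β1 target in airway cells, stood at 23.7, 16.5 and 14.9 CPM with TGF-β1 + dexamethasone, against 142, 117 and 97.2 CPM with TGF-β1 alone (log2 fold change -2.69 ± 0.09, adjusted p = 8.27e-15). LIF, of the same family, was at 16.9, 8.18 and 14.1 CPM with both agents, against 101, 40.4 and 60.8 CPM with TGF-β1 alone (log2 fold change -2.29 ± 0.13, adjusted p = 1.15e-09). IL6 itself was at 0.486, 0.696 and 0.304 CPM with both agents, against 5.43, 2.01 and 3.53 CPM with TGF-β1 alone (log2 fold change -3.03 ± 0.39, adjusted p = 4.1e-06). The groups did not overlap in any of the 3, which for IL11 and LIF was required by their choice among the 10 largest falls given below. IL6 was close to the limit of detection. CXCL8, the neutrophil chemokine IL-8, had 1 read with dexamethasone against 14 without over 3 libraries, a ratio of 0.0756 with an exact 95% counting interval of 0.00179 to 0.497, and its fall was lost without the block (adjusted p = 0.117), without replicate 1 or 3 of TGF-β1 + dexamethasone, without replicate 3 of TGF-β1 alone, and without replicate 1 or 3 of every group (adjusted p up to 0.426). CCL2, a monocyte chemokine, was at 1.30, 3.48 and 1.28 CPM with both agents, against 3.15, 5.57 and 2.97 CPM with TGF-β1 alone (log2 fold change -1.03 ± 0.29, adjusted p = 0.0146), and the groups overlapped. The CCL2 call was lost without the block (adjusted p = 0.249), without replicate 1 or 3 of TGF-β1 + dexamethasone, without replicate 2 or 3 of TGF-β1 alone, and without replicate 1 or 3 of every group (adjusted p up to 0.226). PTGS2, the inducible cyclooxygenase, was not tested, with 11 reads with both agents and 10 with TGF-β1 alone. The members that rose were CSF3 (G-CSF, 3.07 ± 0.58), SAA1 (an acute-phase protein, 1.53 ± 0.25), CSF1 (0.82) and CXCL5, which was at 2.43, 2.61 and 3.10 CPM with both agents, against 0.701, 0.928 and 1.12 CPM with TGF-β1 alone. CSF3 and CXCL5 were below 4 CPM in every library and lost the call without replicate 3 of every group (adjusted p = 0.0779 and 0.0547). Without the block 4 members rose and 4 fell, without replicate 1 of TGF-β1 + dexamethasone or of every group 5 fell, and without replicate 3 of every group 2 rose.

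MAP kinase phosphatases and feedback genes of ERK signalling also divided, 7 higher and 7 lower of 21, 66.7% against 17.5% of all genes tested. DUSP1, the phosphatase that inactivates p38 and JNK and a classic glucocorticoid target, stood at 388, 396 and 258 CPM with TGF-β1 + dexamethasone, against 15.9, 23.3 and 14.7 CPM with TGF-β1 alone (log2 fold change 4.25 ± 0.10, adjusted p = 3.29e-13). ERRFI1, a feedback inhibitor of the EGF receptor, was at 353, 334 and 306 CPM with both agents, against 104, 89.2 and 87.7 CPM with TGF-β1 alone (log2 fold change 1.82 ± 0.06, adjusted p = 7.45e-16). In the other direction, IER3, an immediate-early gene tied to ERK signalling, was at 33.2, 23 and 24.2 CPM with both agents, against 214, 188 and 124 CPM with TGF-β1 alone (log2 fold change -2.64 ± 0.09, adjusted p = 3.55e-13). The groups stood apart in all 3, which for DUSP1 and IER3 was required by their choice among the largest changes. DUSP4 (-0.66), DUSP8 (-1.40), SPRED2 (-0.51) and DUSP16 (-0.47) fell, the first of these only with the block, and DUSP5 (-0.53) and SPRY4 (-0.09) did not pass the test. Without the block 2 members rose, DUSP1 and ERRFI1, and 4 fell. The rises numbered 4 without replicate 3 of TGF-β1 + dexamethasone, replicate 1 or 2 of TGF-β1 alone, or replicate 1 or 3 of every group, and the falls 4 without replicate 3 of every group. Of the immediate-early genes 3 of 21 rose and 4 fell, 33.3% against 17.5% of all genes tested. KLF4 rose by 0.91 ± 0.10 and KLF6 by 0.53 ± 0.05. IER2 fell by 1.06 (SE 0.06) and FOSL1, a FOS-related part of AP-1, fell by 0.76 (SE 0.13). The FOSL1 call was lost without the block (adjusted p = 0.112), and 2 of the 4 falls were called without replicate 1 of every group. FOS (0.19), JUN (-0.28), EGR1 (-0.42) and MYC (0.07) did not pass the test.

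Of 31 interferon-stimulated genes 1 rose and 5 fell, with a median of -0.12; 19.4% of the list was called, against 17.5% of all genes tested. IFIT2 was at 0.648, 0.348 and 1.09 CPM with TGF-β1 + dexamethasone, against 2.98, 2.78 and 2.58 CPM with TGF-β1 alone (log2 fold change -1.68 ± 0.35, adjusted p = 0.0012). It was the one member still called without the block. The falls numbered 1 without replicate 3 of TGF-β1 alone, 2 without replicate 1 of TGF-β1 + dexamethasone or replicate 1 or 3 of every group, and 3 without replicate 3 of TGF-β1 + dexamethasone. The rise was called only without replicate 2 of TGF-β1 alone or of every group when libraries were left out. OAS1 (-0.57) and MX1 (-0.47) did not pass the test.

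Among the 10 largest falls were CYP24A1, TNFSF15, FGF5, IL11, IER3, AMIGO2, ADAMTS1, LIF and SEMA7A, again chosen by size under the same conditions. CYP24A1, the enzyme that breaks down active vitamin D, stood at 1.78, 2.09 and 2.01 CPM with TGF-β1 + dexamethasone, against 25.4, 24.4 and 16.5 CPM with TGF-β1 alone (log2 fold change -3.37 ± 0.19, adjusted p = 1.06e-11). TNFSF15, a TNF-family cytokine also called TL1A, was at 0.324, 0.696 and 0.973 CPM with both agents, against 6.66, 12.8 and 5.16 CPM with TGF-β1 alone (log2 fold change -3.21 ± 0.34, adjusted p = 4e-07). AMIGO2, a membrane adhesion protein, was the most abundant of these 9 at 119, 64.7 and 118 CPM with both agents, against 663, 455 and 645 CPM with TGF-β1 alone (log2 fold change -2.53 ± 0.22, adjusted p = 0.000268). The 3 dexamethasone libraries of each lay below all 3 without. SEMA7A, a membrane-bound semaphorin, was at 40.2, 27.3 and 31.3 CPM with both agents, against 196, 153 and 141 CPM with TGF-β1 alone (log2 fold change -2.28 ± 0.11, adjusted p = 2.05e-08). ADAMTS1, a secreted metalloproteinase that cleaves proteoglycans, was at 3.56, 6.61 and 2.98 CPM with both agents, against 26.1, 32.5 and 15.3 CPM with TGF-β1 alone (log2 fold change -2.48 ± 0.18, adjusted p = 1.11e-09). FGF5, a secreted growth factor, was at 4.54, 0.522 and 4.20 CPM with both agents, against 38.2, 6.18 and 33.3 CPM with TGF-β1 alone (log2 fold change -3.03 ± 0.17, adjusted p = 1.88e-11), with replicate 2 the lowest in both groups, so that its dexamethasone value of replicate 1 came near the replicate 2 value without. The groups did not overlap in these 3 genes either.

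IL11, TNFSF15 and AMIGO2 of the 10 largest falls have an AP-1 match in their windows, and the IL11 promoter is shown as an example. It lies at chr19:55370414-55370713 (GRCh38.p14, minus strand, from RefSeq), and the capitals mark the letters TGANTCA, the motif bound by FOS and JUN proteins, whose first base is 96 bases before the start.
IL11: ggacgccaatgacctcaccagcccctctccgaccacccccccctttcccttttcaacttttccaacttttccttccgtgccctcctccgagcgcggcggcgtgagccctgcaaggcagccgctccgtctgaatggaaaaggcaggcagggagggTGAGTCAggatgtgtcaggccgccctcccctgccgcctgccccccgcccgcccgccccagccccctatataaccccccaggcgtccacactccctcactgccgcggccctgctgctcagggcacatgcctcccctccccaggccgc

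Growth factors fell more often than they rose: 11 of 36 tested genes of the list of growth factors and receptors fell and 5 rose. These were 44.4% against 17.5% of all genes tested, and the median was -0.16. Without the block 8 fell and 3 rose. HBEGF, a ligand of the EGF receptor, was at 9.72, 3.65 and 4.44 CPM with TGF-β1 + dexamethasone, against 38.5, 23.3 and 21.5 CPM with TGF-β1 alone (log2 fold change -2.24 ± 0.26, adjusted p = 0.000117). VEGFC, a ligand that acts on lymphatic endothelium, was at 19.9, 10.1 and 13.8 CPM with both agents, against 49.8, 33.7 and 40.1 CPM with TGF-β1 alone (log2 fold change -1.50 ± 0.11, adjusted p = 1.55e-09). AREG, another EGF receptor ligand, went the other way, at 18.8, 16 and 15.4 CPM with both agents, against 6.83, 6.65 and 5.72 CPM with TGF-β1 alone (log2 fold change 1.40 ± 0.14, adjusted p = 1.46e-07). EGF receptor ligands thus divided, with AREG higher and HBEGF, EREG (-0.70) and TGFA (-0.62) lower; the calls of EREG and TGFA were lost without the block. PDGFA (-1.46), FGF2 (-0.79) and IGFBP3 (-0.998) fell. The receptors EGFR (-0.03), ERBB2 (0.08), MET (-0.16) and IGF1R (-0.19) did not pass the test, and FGFR1 rose by 0.32.

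SMAD pathway genes fell in 12 and rose in 4 of 32 tested members, 50% against 17.5% of all genes tested, with a median of -0.18. TGFB2, one of the ligands, stood at 43.3, 31 and 35.7 CPM with TGF-β1 + dexamethasone, against 122, 125 and 111 CPM with TGF-β1 alone (log2 fold change -1.69 ± 0.08, adjusted p = 5.8e-13). TGFB3 fell by 1.38, and TGFB1 (-0.23) did not pass the test. SMAD3, the signal transducer, was at 39.4, 34.3 and 30.6 CPM with both agents, against 84.3, 114 and 80.3 CPM with TGF-β1 alone (log2 fold change -1.43 ± 0.18, adjusted p = 0.000899), while SMAD2 (0.00) and SMAD4 (0.11) did not pass the test. Both the ligand and SMAD3 were lower in every library with dexamethasone than in any with TGF-β1 alone. Of the receptors TGFBR1 (0.16) and TGFBR2 (0.23) did not pass the test, and the coreceptor TGFBR3, betaglycan, rose to 24.5, 27.5 and 22.1 CPM with both agents, against 9.81, 12.5 and 8.24 CPM with TGF-β1 alone (log2 fold change 1.32 ± 0.25, adjusted p = 0.00701). The inhibitors fell too: FST, follistatin, by 1.52 (SE 0.12), SMAD6 by 1.00, SMAD7 by 0.75 (SE 0.12) and the ubiquitin ligases SMURF2 by 0.68 and SMURF1 by 0.46 on the log2 scale. Without replicate 1 of every group 2 members rose and 9 fell.

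Among the direct targets tied to matrix remodelling, CCN2, connective tissue growth factor, rose. It was at 725, 534 and 465 CPM with both agents, against 312, 154 and 193 CPM with TGF-β1 alone (log2 fold change 1.40 ± 0.22, adjusted p = 0.00617). The groups did not overlap. The targets ID1 (-0.15), ID3 (-0.17), SKIL (-0.18) and TGFBI (-0.15) did not pass the test. Leaving out libraries ended 3 of these calls: CCN2 without replicate 1 or 3 of every group (adjusted p up to 0.12), SMAD7 without replicate 1 of every group (adjusted p = 0.12), and TGFBR3 without replicate 1 of every group or replicate 3 of TGF-β1 alone (adjusted p up to 0.0984).

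Of 55 tested matrix genes 11 rose and 4 fell, 27.3% of the list against 17.5% of all genes tested, with a median of -0.03, and without the block 6 rose and 2 fell; without replicate 1 of every group 5 rose. The falls numbered 2 without replicate 1 of TGF-β1 + dexamethasone, replicate 1 or 3 of TGF-β1 alone or replicate 1 of every group, and 7 without replicate 2 of every group. FN1, the fibronectin gene, had 29857, 19128 and 26892 CPM with TGF-β1 + dexamethasone, against 22923, 14577 and 21018 CPM with TGF-β1 alone, a log2 fold change of 0.37 ± 0.18 that did not pass the test (adjusted p = 0.233). COL1A1 had 9905, 7888 and 10337 CPM with both agents, against 11789, 9238 and 10820.5 CPM with TGF-β1 alone (log2 fold change -0.17 ± 0.16, adjusted p = 0.575). The libraries of both genes overlapped between the groups, while within the pairs of one replicate number FN1 was higher and COL1A1 lower with both agents in 3 of 3 pairs. COL1A2 (0.02), COL4A1 (-0.03), COL5A1 (-0.00) and SPARC (-0.08) stood near 0. COL8A1, a short-chain collagen, rose to 128, 95 and 108 CPM with both agents, against 33.3, 29.4 and 32 CPM with TGF-β1 alone (log2 fold change 1.79 ± 0.08, adjusted p = 5.83e-13). LOX, which cross-links collagen and elastin, rose by 0.94, TIMP3, a protease inhibitor, by 0.71, and perlecan (HSPG2) by 0.62. ADAMTS1 and LAMB3 (-0.54) fell with and without the block. The rise of ELN, elastin, depended on each library. It was at 147, 41.4 and 125 CPM with both agents, against 38.5, 3.25 and 46.4 CPM with TGF-β1 alone, with an adjusted p of 0.0424 that reached up to 0.395 without any single library or without replicate 1 or 3 of every group.

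Mesenchymal genes did not move one way: 7 of 28 rose and 6 fell, 46.4% against 17.5% of all genes tested, with a median of -0.01. WNT5A, a ligand of non-canonical WNT signalling, was at 93.5, 129 and 86.3 CPM with TGF-β1 + dexamethasone, against 23.3, 46.4 and 21.5 CPM with TGF-β1 alone (log2 fold change 1.82 ± 0.11, adjusted p = 9.73e-09). ITGA5, the fibronectin-binding integrin subunit, was at 1687, 1419 and 1523 CPM with both agents, against 544, 408 and 555 CPM with TGF-β1 alone (log2 fold change 1.61 ± 0.18, adjusted p = 0.000919); without replicate 1 of every group its adjusted p was 0.0599. SNAI1, a repressor of E-cadherin, was at 47.8, 35.2 and 48.9 CPM with both agents, against 109, 85.5 and 101 CPM with TGF-β1 alone (log2 fold change -1.15 ± 0.07, adjusted p = 9.38e-11). Groups did not overlap in these 3 genes. The EMT factors thus went different ways, with TWIST1 (0.86) and ZEB2 (0.80) higher, SNAI1 and TWIST2 (-0.84) lower, and SNAI2 (0.16) not past the test. Without the block 4 members rose and 2 fell, and without replicate 1 of every group 3 fell. THY1, which also marks fibroblasts, rose by 0.62 ± 0.07 with overlapping groups, and without the block its adjusted p was 0.258. The summed level of the 10 fibroblast markers, in CPM without TMM scaling, was 463 to 781 with dexamethasone and 307 to 527 with TGF-β1 alone, nearly all of it THY1, and its part in the result was not tested.

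Epithelial genes rose in 11 and fell in 2 of 38 tested members, 34.2% against 17.5% of all genes tested, with a median of 0.09. KRT7, a keratin of simple epithelia, was at 1752, 2205 and 1475 CPM with TGF-β1 + dexamethasone, against 935, 1182 and 762 CPM with TGF-β1 alone (log2 fold change 0.92 ± 0.05, adjusted p = 3.04e-12). KRT5, a basal-cell keratin, was at 820.3, 1370.4 and 709.9 CPM with both agents, against 494, 909 and 402 CPM with TGF-β1 alone (log2 fold change 0.71 ± 0.07, adjusted p = 6e-06). KRT6A, a keratin of stressed and healing epithelium, was at 241, 478 and 177 CPM with both agents, against 68.3, 189.7 and 49.1 CPM with TGF-β1 alone (log2 fold change 1.66 ± 0.10, adjusted p = 1.11e-07). Replicate 2 was the highest in both groups for all 3 keratins; the groups overlapped for KRT5 and KRT6A but each pair rose. E-cadherin (CDH1) rose by 0.32, a call lost without the block. KRT8 (0.69), PKP2 (0.60) and KRT7 were the 3 rises still called without the block, where KRT5 had an adjusted p of 0.394 and KRT6A of 0.316. Of the 14 bronchial epithelial markers 6 rose and 2 fell, TP63 (-0.47), a factor of basal cells whose call was lost without the block, and LAMB3 (-0.54). Their summed level, on the same unscaled basis, was 5949 to 8930 with dexamethasone and 3830 to 6081 with TGF-β1 alone, highest in replicate 2 of both groups, and its part in these rises was not tested. KRT6A and KRT6B are near-identical, so reads may have been shared between them. ITGB4, the integrin subunit of hemidesmosomes and a marker of bronchial epithelium outside this list, rose to 1478, 1503 and 1576 CPM with both agents, against 603, 468 and 552 CPM with TGF-β1 alone (log2 fold change 1.49 ± 0.09, adjusted p = 9.01e-08), while KRT80 fell by 1.12 (SE 0.12).

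Cofilin cuts and turns over actin filaments, whose remodelling accompanies epithelial-mesenchymal change. Neither cofilin gene passed the test: CFL1 had 1356, 1274 and 1212 CPM with TGF-β1 + dexamethasone, against 1261, 1195 and 1148 CPM with TGF-β1 alone (log2 fold change 0.09 ± 0.05, adjusted p = 0.197), and for CFL2 the log2 fold change was -0.13 ± 0.10 (adjusted p = 0.476). Of the 45 genes of the list 7 rose and 3 fell, 22.2% against 17.5% of all genes tested, with a median of 0.02. Without the block 2 rose, SSH2 and RHOB, and none fell, and without replicate 1 of every group 4 rose. SSH2, one of the slingshot phosphatases that activate cofilin, was at 155, 161 and 186 CPM with both agents, against 61.2, 87.4 and 75.8 CPM with TGF-β1 alone (log2 fold change 1.17 ± 0.08, adjusted p = 2.91e-08), with no overlap between the groups. The other slingshot phosphatase called, SSH1, fell by 0.24, a call lost without the block and without replicate 1 of TGF-β1 + dexamethasone or replicate 1 or 3 of every group (adjusted p up to 0.112). RHOB, a small GTPase, was at 418, 368 and 344 CPM with both agents, against 293, 261 and 248 CPM with TGF-β1 alone (log2 fold change 0.49 ± 0.07, adjusted p = 7.21e-05). The kinases LIMK1 (0.23) and LIMK2 (0.06), which inactivate cofilin, and RHOA (0.01), RAC1 (-0.05) and ACTB (0.07) did not pass the test.

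Ion transport genes rose in 5 and fell in 1 of 18 tested members (33.3% called, against 17.5% of all genes tested), among them genes of sodium uptake. SCNN1A, which encodes the pore-forming alpha chain of the sodium channel ENaC, was at 37.8, 39.3 and 49.1 CPM with TGF-β1 + dexamethasone, against 4.03, 4.64 and 6.84 CPM with TGF-β1 alone (log2 fold change 2.97 ± 0.11, adjusted p = 2.29e-14). SGK1, the kinase that keeps this channel at the surface, was at 129, 149 and 106 CPM with both agents, against 88.5, 74.4 and 60.2 CPM with TGF-β1 alone (log2 fold change 0.79 ± 0.17, adjusted p = 0.0183). NEDD4L, the ubiquitin ligase that removes the channel, was at 37.9, 35.5 and 42.2 CPM with both agents, against 66.8, 70.2 and 73.5 CPM with TGF-β1 alone (log2 fold change -0.85 ± 0.08, adjusted p = 2.86e-08). The groups stood apart in all 3 genes. The sodium pump subunit ATP1B1 (0.71) rose, and the water channels AQP1 (0.23) and AQP3 (-0.02) did not pass the test. The SGK1 call was lost without replicate 1 or 2 of TGF-β1 + dexamethasone, replicate 2 or 3 of TGF-β1 alone, or replicate 1 or 3 of every group (adjusted p up to 0.0992), with a log2 fold change of 0.69 to 0.92.

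Genes of fuel use rose in 11 and fell in 7 of 31 members, 58.1% against 17.5% of all genes tested. ACSL1, which activates long-chain fatty acids, was at 291, 299 and 320.0 CPM with TGF-β1 + dexamethasone, against 27.3, 27.8 and 38.3 CPM with TGF-β1 alone (log2 fold change 3.25 ± 0.10, adjusted p = 3.06e-10). PDK4, a kinase that inhibits pyruvate dehydrogenase, was at 3.08, 9.75 and 5.90 CPM with both agents, against 0.175, 0 and 0.168 CPM with TGF-β1 alone (log2 fold change 5.41 ± 0.40, adjusted p = 1.04e-09), where replicate 2 without dexamethasone had no read. KLF15, a partner of the receptor in amino acid metabolism, was at 4.54, 3.48 and 4.38 CPM with both agents, against 0.350, 0.155 and 0.841 CPM with TGF-β1 alone (log2 fold change 2.82 ± 0.28, adjusted p = 1.29e-07). All 3 rose in every pair of libraries. ANGPTL4 (2.11), IRS2 (2.00), PPARG (1.26) and GLUL (1.20) rose too. Among the 7 falls PFKFB3 (-0.63), which makes an activator of glycolysis, was the only one called without the block, and the falls numbered 4 without replicate 1 or 3 of TGF-β1 + dexamethasone and 3 without replicate 1 or 3 of every group. Cholesterol synthesis fell in 10 of 24 members and rose in none, 41.7% lower against 8% of all genes tested. The falls were by 0.22 to 0.74 on the log2 scale, the last in STARD4 (-0.74), a sterol carrier. None of the 10 was called without the block, and without replicate 1 of every group or replicate 3 of TGF-β1 + dexamethasone 6 were. Of 29 genes of hypoxia and glycolysis 3 rose and 5 fell, 27.6% against 17.5% of all genes tested, and without the block none of the falls was called. The rises numbered 5 without replicate 3 of TGF-β1 alone, and the falls 3 without that library, replicate 1 of TGF-β1 + dexamethasone or replicate 1 of every group. Enzymes such as LDHA (0.18), PGK1 (0.02) and GAPDH (0.01) did not pass the test, while HIF3A, a member of the hypoxia-inducible factors, rose to 6.32, 11.1 and 7.18 CPM with both agents, against 0.350, 2.16 and 1.18 CPM with TGF-β1 alone (log2 fold change 2.69 ± 0.26, adjusted p = 7.61e-08).

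Forkhead and Krüppel-like transcription factors were 12 of 29 higher and 6 lower (62.1% called, against 17.5% of all genes tested), with a median of 0.19. FOXQ1 was at 14.1, 5.74 and 9.0 CPM with TGF-β1 + dexamethasone, against 2.28, 0.618 and 1.57 CPM with TGF-β1 alone (log2 fold change 2.63 ± 0.26, adjusted p = 1.17e-07). FOXD1 was at 64.7, 67.9 and 63.3 CPM with both agents, against 201, 161 and 149 CPM with TGF-β1 alone (log2 fold change -1.37 ± 0.09, adjusted p = 1.41e-08), and FOXS1 at 6.81, 6.61 and 5.72 CPM with both agents, against 31.7, 30.5 and 25.3 CPM with TGF-β1 alone (log2 fold change -2.18 ± 0.13, adjusted p = 2.47e-11). FOXP1 fell by 1.08 (SE 0.07), and FOXP4 (1.25), KLF13 (1.10), FOXO3 (0.93) and KLF7 (0.80) rose. The rise covered FOXO1 and FOXO3, while FOXO4 (0.10) did not pass the test. The falls numbered 3 without replicate 3 of TGF-β1 + dexamethasone or replicate 1 of every group. CEBPB, a leucine-zipper factor of the acute-phase response, rose to 604, 537 and 593 CPM with both agents, against 241, 154 and 214 CPM with TGF-β1 alone (log2 fold change 1.52 ± 0.09, adjusted p = 1.68e-07). Of the 27 tested genes that respond to ATF4 or to unfolded proteins 2 rose and 1 fell, 11.1% against 17.5% of all genes tested. The rises numbered 1 without the block, replicate 2 of TGF-β1 alone or replicate 3 of every group. No fall was called without the block, replicate 3 of TGF-β1 alone or replicate 1 or 3 of every group, and 4 were without replicate 2 of every group.

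Of 40 cell cycle genes 2 rose and 3 fell, 12.5% against 17.5% of all genes tested, with a median of 0.02. MKI67 (0.02), TOP2A (-0.04) and PCNA (0.00) did not pass the test. None of the falls was called without the block or without replicate 3 of TGF-β1 + dexamethasone or of every group, and 1 was without replicate 1 of every group. The rises numbered 1 without replicate 3 of TGF-β1 + dexamethasone, of TGF-β1 alone or of every group, where E2F2 lost its call (adjusted p up to 0.298). Inhibitors and D-type cyclins divided, 3 higher and 3 lower of 12, 50% against 17.5% of all genes tested. CDKN1C rose as given above, whereas CDKN2B, the p15 inhibitor that TGF-β1 induces, was at 133, 134 and 124 CPM with TGF-β1 + dexamethasone, against 315, 381 and 306 CPM with TGF-β1 alone (log2 fold change -1.35 ± 0.06, adjusted p = 2.64e-13). CCND1, cyclin D1, was at 68.9, 37.9 and 44.3 CPM with both agents, against 102, 75 and 83 CPM with TGF-β1 alone (log2 fold change -0.81 ± 0.08, adjusted p = 1.02e-06). CDKN1A, p21, had a log2 fold change of 0.14 and did not pass the test. In the BCL2 family 5 of 15 rose and 2 fell, 46.7% against 17.5% of all genes tested, and without the block 3 rose and none fell. The fall of BCL2L13 (-0.23) was lost in 8 of the 9 settings that left out libraries, all but that without replicate 1 of TGF-β1 alone (adjusted p up to 0.141). BCL2L1, which encodes the survival protein BCL-XL, was at 271, 193 and 207 CPM with both agents, against 125, 101 and 107 CPM with TGF-β1 alone (log2 fold change 1.00 ± 0.08, adjusted p = 1.28e-06), MCL1 rose by 0.71, and of the cell death genes PMAIP1 (NOXA) rose by 0.79 ± 0.12 and BBC3 (PUMA) had -0.76 ± 0.14, a fall lost without the block (adjusted p = 0.101). Of 21 genes of cAMP signalling 4 rose and 4 fell, 38.1% against 17.5% of all genes tested, and without replicate 1 of every group 2 rose and 2 fell. RGS3, which switches off G proteins, was at 19.6, 14.6 and 19.7 CPM with both agents, against 37.5, 25.5 and 39.5 CPM with TGF-β1 alone (log2 fold change -0.93 ± 0.12, adjusted p = 4.96e-06). PDE4B, a cAMP-degrading phosphodiesterase, had 3 reads with both agents and 22 with TGF-β1 alone, a ratio of 0.144 with an exact 95% counting interval of 0.0276 to 0.48; its fall was lost without the block (adjusted p = 0.0846) and without replicate 1 of every group (adjusted p = 0.0937).

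**Figure D3:**
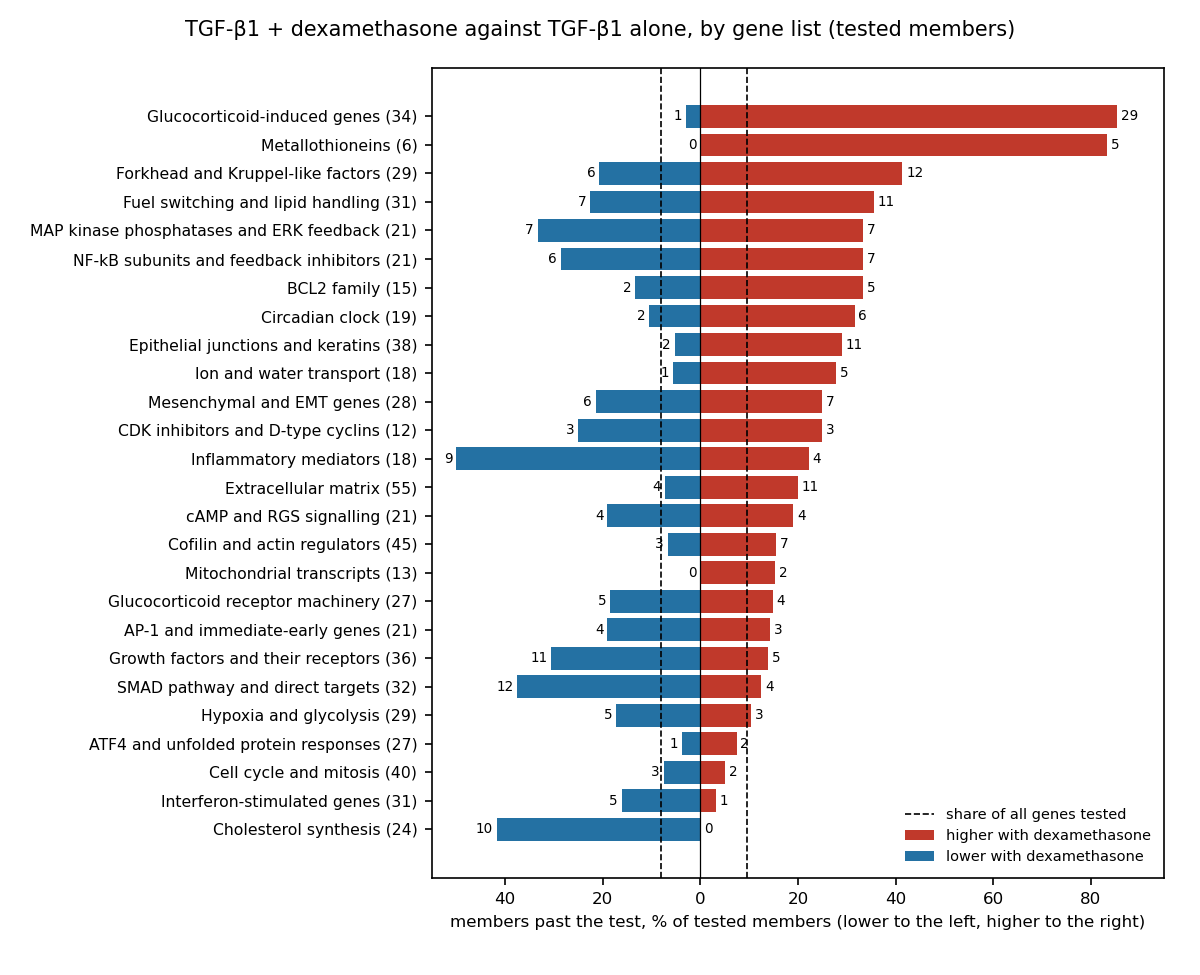
Each row is a gene list with its number of tested members in brackets; red bars to the right give the percentage of tested members that rose and blue bars to the left the percentage that fell, with counts at the ends and dashed lines at the shares of all genes tested (9.47% and 8%). Glucocorticoid-induced genes (29 of 34) and metallothioneins (5 of 6) have the longest red bars, and inflammatory mediators (9 of 18) and cholesterol synthesis (10 of 24) the longest blue bars.

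Promoter windows of 300 bases, 250 before and 50 after each RefSeq start, were searched on both strands for 3 motifs, and 10659 of the 13469 tested genes had a window. The glucocorticoid response element, searched as the half-sites GNACA and TGTNC spaced 3 bases apart, stood in the windows of 0.338% of tested genes with a window (36 genes) and of 0.48% of all genes in the promoter table. Of the genes that rose by at least 2-fold 1.04% had it (3 of 288), and of those that fell by at least 2-fold 0.752% (1 of 133). The AP-1 letters TGANTCA stood in the windows of 14.9% of the genes that rose by at least 2-fold (43 genes) and 17.3% of those that fell (23 genes), against 6.96% of tested genes and 9.37% of all genes in the promoter table. The NF-κB letters GGGA and TTCC, spaced 2 bases apart, were found for 4.17% of the risen and 3.01% of the fallen genes, against 2.2% of tested genes and 1.97% of all genes in the promoter table. A gene counted once if any of its windows matched. The 288 risen genes had 465 windows, the 133 fallen genes 230 and the 10659 tested genes 15510. The part of these window numbers in the shares was not tested. Motifs may overlap each other in a window, a match is not evidence of binding, and no match says only that these letters are not in this window.

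Windows with the glucocorticoid response element are shown for a gene that rose and for the gene that fell by at least 2-fold, with the matching letters in capitals. CMKLR2, a chemerin receptor, averaged 5.62 CPM with TGF-β1 + dexamethasone and 0.372 CPM with TGF-β1 alone (log2 fold change 4.02 ± 0.42 SE, adjusted p = 1.97e-07 by edgeR), and its match begins 181 bases before the start, in the window chr2:206213322-206213621 (minus strand). EVA1A, a membrane protein tied to autophagy, averaged 3.52 CPM with TGF-β1 + dexamethasone and 10.2 CPM with TGF-β1 alone (log2 fold change -1.49 ± 0.21 SE, adjusted p = 1.21e-05), and its match begins 37 bases before the start, in the window chr2:75569670-75569969 (minus strand, GRCh38.p14 for both).
CMKLR2: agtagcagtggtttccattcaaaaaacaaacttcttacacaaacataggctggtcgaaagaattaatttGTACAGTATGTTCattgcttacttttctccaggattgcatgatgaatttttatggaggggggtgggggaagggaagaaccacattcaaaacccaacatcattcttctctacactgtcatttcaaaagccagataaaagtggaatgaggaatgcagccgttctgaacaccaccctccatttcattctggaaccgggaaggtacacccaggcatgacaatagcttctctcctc
EVA1A: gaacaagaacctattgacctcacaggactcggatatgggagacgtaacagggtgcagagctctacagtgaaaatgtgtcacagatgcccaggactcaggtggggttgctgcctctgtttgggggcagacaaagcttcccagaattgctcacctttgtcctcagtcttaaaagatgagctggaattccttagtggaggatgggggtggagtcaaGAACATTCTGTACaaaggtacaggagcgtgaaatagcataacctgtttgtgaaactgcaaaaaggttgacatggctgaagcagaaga

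The effect of dexamethasone without TGF-β1, from the 3 dexamethasone and the 3 control libraries, shares no library with the effect described so far. Without TGF-β1 dexamethasone raised 1461 genes (10.8%) and lowered 1535 (11.4%). Of the 1275 genes that rose after TGF-β1, 830 also rose without it, which is 65.1% of the first list and 56.8% of the second. Of the 1078 that fell, 708 fell without TGF-β1, 65.7% and 46.1% of the lists. At 2-fold or more 254 of 375 rises (67.7%; 63.3% of 401) and 113 of 186 falls (60.8%; 39.1% of 289) were shared. A call in one effect and not in the other does not show a difference, so the difference of the 2 log2 effects was tested itself. It passed for 644 genes (4.78%), 406 above 0 (3.01%) and 238 below 0 (1.77%), and at 2-fold or more for 89 (0.661%) and 57 (0.423%), where above 0 means that the log2 effect was higher after TGF-β1, be it a larger rise, a smaller fall or a rise in place of a fall. Without the block 65 and 54 passed, without replicate 1 of every group 142 and 88, without replicate 2 of every group 607 and 359, and without replicate 3 of every group 176 and 100.

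**Figure D4:**
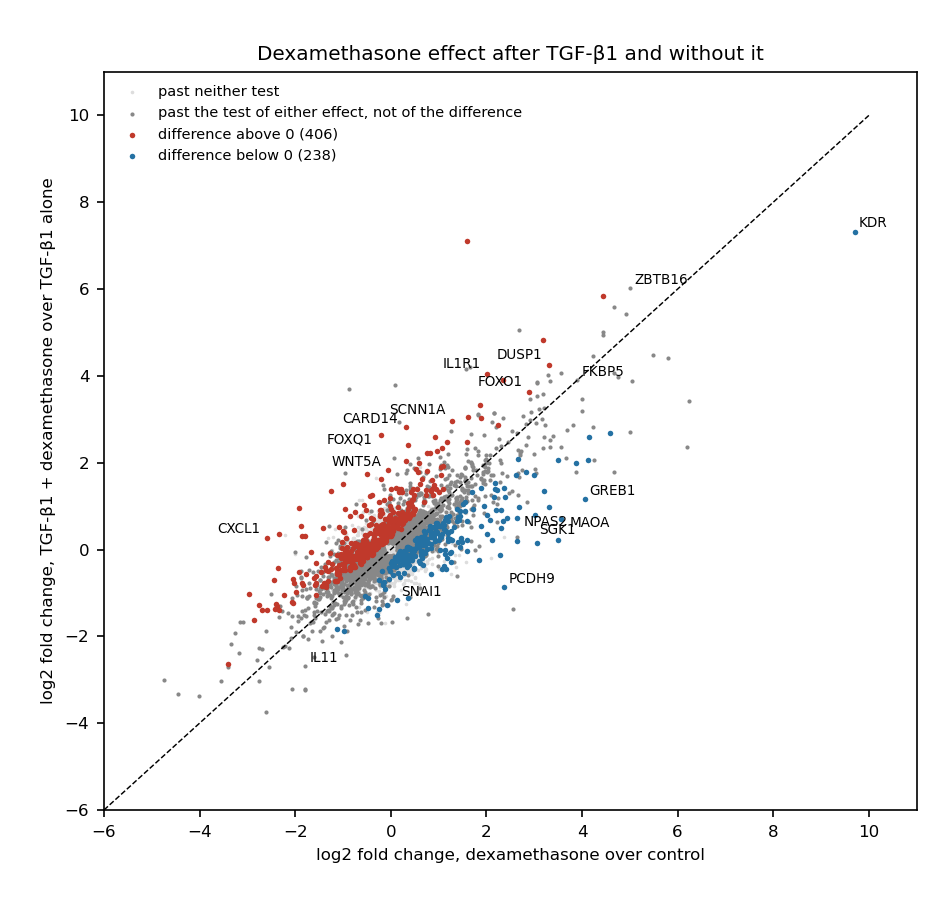
Each point is a gene, with the log2 effect of dexamethasone after TGF-β1 on the y axis and without TGF-β1 on the x axis; the dashed line marks equal effects, red points have a difference above 0 past the test (406 genes) and blue points below 0 (238 genes), dark grey points passed the test of either effect but not of the difference, and light grey points passed none. IL1R1 and SCNN1A lie above the line and SGK1, MAOA and GREB1 below it, while FKBP5 lies on it at 3.91 after TGF-β1 and 3.90 without.

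Several genes answered more strongly after TGF-β1. IL1R1 rose by 4.03 ± 0.18 after TGF-β1 and by 2.02 ± 0.20 without it. Its level was 34.6, 65.2 and 28.4 CPM with dexamethasone alone and 9.70, 8.69 and 9.42 CPM in controls, so that it started from a like level in the controls and in cells with TGF-β1 alone; the difference was 2.01 ± 0.29 (adjusted p = 0.00446 by edgeR) and was lost without replicate 1 of every group (adjusted p = 0.175) and without the block (adjusted p = 0.152). SCNN1A started lower after TGF-β1. It had 131, 130.3 and 175 CPM with dexamethasone alone and 56.9, 45.8 and 76.6 CPM in controls, a rise of 1.28 ± 0.07, and the difference was 1.69 ± 0.14 (adjusted p = 1.27e-07); its level with both agents, 37.8, 39.3 and 49.1 CPM, was below that of the controls in every replicate. WNT5A rose after TGF-β1 and had a log2 fold change of -0.06 ± 0.12 without it, at 24.8, 47.9 and 19.6 CPM with dexamethasone alone and 26.4, 40.7 and 24 CPM in controls (difference 1.88 ± 0.16, adjusted p = 5.87e-06). DUSP1, FOXO1 and NFKBIA had positive differences too (0.94, 0.74 and 0.63); without the block the differences of WNT5A, DUSP1, FOXO1 and NFKBIA had adjusted p of 0.303, 0.25, 0.29 and 1, and that of FOXO1 was also lost without replicate 3 of every group (adjusted p = 0.0647). CARD14, an adaptor of NF-κB signalling in epithelium, was at 29.5, 17.4 and 15.9 CPM with TGF-β1 + dexamethasone, against 3.50, 2.01 and 2.86 CPM with TGF-β1 alone, and had a log2 fold change of 0.32 ± 0.27 without TGF-β1 (difference 2.49 ± 0.37, adjusted p = 0.000315).

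Other genes had a negative difference. MAOA, monoamine oxidase A, had 9.40, 16.2 and 12 CPM with TGF-β1 + dexamethasone, against 7.18, 7.42 and 7.74 CPM with TGF-β1 alone, but 76.1, 72 and 70.5 CPM with dexamethasone alone, against 6.06, 7.92 and 5.36 CPM in controls (difference -2.85 ± 0.21, adjusted p = 4.56e-08). SGK1 stood higher with TGF-β1 alone than in controls and had 155, 194 and 159.6 CPM with dexamethasone alone, against 22.9, 15.1 and 21.5 CPM in controls (difference -2.23 ± 0.26, adjusted p = 0.00307). GREB1, an oestrogen-responsive gene, rose by 1.16 ± 0.20 after TGF-β1 and by 4.07 ± 0.16 without it. SNAI1 fell after TGF-β1 and had 3.25, 3.27 and 3.93 CPM with dexamethasone alone, against 4.09, 2.33 and 3.43 CPM in controls (log2 fold change 0.13 ± 0.17), a low level in all 6 libraries. PCDH9, a protocadherin, had 41.2, 48.2 and 47.3 CPM with TGF-β1 + dexamethasone, against 99.4, 102 and 60.5 CPM with TGF-β1 alone, and 10.9, 16.4 and 13.8 CPM with dexamethasone alone, against 2.73, 2.02 and 2.75 CPM in controls, so that its effect had opposite signs (-0.86 ± 0.18 and 2.38 ± 0.34). Its difference was lost without replicate 2 of every group (adjusted p = 0.124), and its fall after TGF-β1 without replicate 1 or 2 of TGF-β1 + dexamethasone, replicate 2 of TGF-β1 alone, or replicate 1 or 2 of every group (adjusted p up to 0.222). The KDR difference was -2.38 ± 0.60 (adjusted p = 0.0232) and was lost without the block, without replicate 1 or 3 of TGF-β1 alone and without replicate 1 or 3 of every group (adjusted p up to 0.523).

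**Figure D5:**
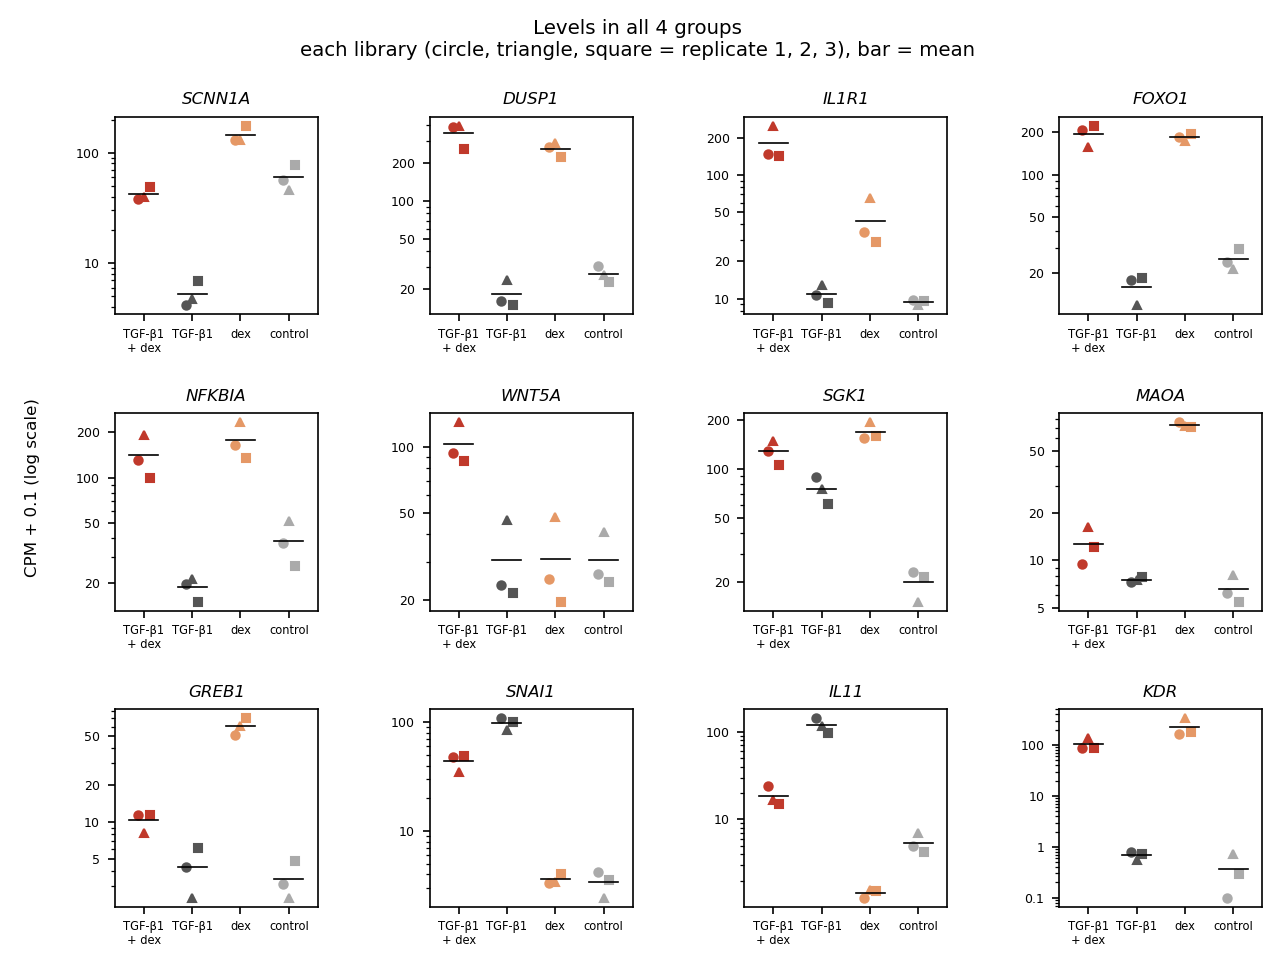
Each panel is a gene with CPM + 0.1 on a log axis in TGF-β1 + dexamethasone, TGF-β1 alone, dexamethasone alone and control, from left to right; circle, triangle and square are replicates 1, 2 and 3 and the bar is the mean. SCNN1A, DUSP1, IL1R1, FOXO1, NFKBIA and WNT5A have larger log2 effects after TGF-β1, whereas SGK1, MAOA, GREB1, SNAI1 and KDR have smaller or more negative ones, and IL11 did not pass the test of the difference (adjusted p = 0.0705). The KDR difference was lost without the block (adjusted p = 0.823).

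The lists were compared between the effects as well. The median effect of the 34 glucocorticoid-induced genes was 2.06 after TGF-β1 and 2.16 without it, and the difference passed above 0 for 4 and below 0 for 8 of them, against 3.01% and 1.77% of all genes. FKBP5 had log2 fold changes of 3.91 after TGF-β1 and 3.90 without it, PER1 2.89 after and 2.82 without, and ERRFI1 1.82 after and 1.71 without. The 18 tested inflammatory mediators had a median of -0.49 after TGF-β1 and -1.75 without it. Of these 9 fell after TGF-β1 and 12 without it, against 8% and 11.4% of all genes tested. The difference passed above 0 for 4 and below 0 for none, against 3.01% and 1.77% of all genes. Of the 31 tested interferon-stimulated genes 5 fell after TGF-β1 and 14 without it, against the same 8% and 11.4% of all genes. Their difference passed above 0 for 3 and below 0 for 1, against 3.01% and 1.77% of all genes. NR3C1 fell by less after TGF-β1, -0.72 on the log2 scale against -1.31 without it (difference 0.59 ± 0.08, adjusted p = 2.91e-05), a difference lost without the block (adjusted p = 0.362).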

How the data were processed

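RNA-seq counts per gene of 12 libraries were used, 3 in each of 4 groups; 6 further columns of the deposited table carry no label of these samples and were not used. Per the labels' protocols, each library was made from 500 ng of RNA (RNA integrity above 8), and per the submitters' processing notes the authors counted reads with featureCounts against hg38; the sources used here give no aligner, annotation or strand setting. Near-identical and overlapping genes are therefore uncertain. The 12 libraries held 5861591 to 19727235 counts. Of 28395 identifiers 27745 matched RefSeq gene names, with 99.9426% of counts.

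Genes with too few counts were removed (edgeR 4.0.16, filterByExpr, minimum count 10), libraries were scaled by TMM, and edgeR's robust quasi-likelihood test was fitted to all 12 libraries with 4 group means and the replicate number as a block (R 4.3.3). The block follows the data: same-numbered libraries deviated together in 18 of 18 pairs, with correlations of 0.25 to 0.541. The labels call the 3 replicates biological, with nothing more on their source. Adjusted p-values are Benjamini-Hochberg values over 13469 genes, with a threshold of 0.05; SE is the log2 fold change over the root of F. Alternatives were DESeq2 1.42.0, limma-voom 3.58.1, other scalings and filters, no block, and each library or replicate left out. Named genes are the 10 largest changes in each direction (called, protein-coding, mean log2 CPM of at least 1, groups not overlapping and all 3 same-numbered pairs moving alike), 24 fixed genes, the 3 largest called changes per gene list and the 5 largest differences of the 2 effects in each direction, and other members are given from their lists; the genes with a promoter shown were chosen after their values were seen. Some genes that these rules choose are not reported here, but stay in the counts over lists. The comparison and the gene lists were chosen with earlier results of these data known. Counting intervals cover counting error only.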

Additional observations from a re-analysis of the deposited data

Results flagged for a closer look

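The effect of dexamethasone after TGF-β1 and its effect without TGF-β1 differed, by the test of the difference itself, for 406 genes with a positive and 238 with a negative difference of the log2 effects (edgeR's quasi-likelihood test, Benjamini-Hochberg adjustment). Among the genes named here 49 passed. A positive difference means a higher log2 effect after TGF-β1, be it a larger rise, a smaller fall or a rise in place of a fall. Each value in brackets is the difference of the 2 log2 effects.

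Chemokines and an interferon target had positive differences: CXCL1 (2.87), CXCL5 (2.49), CCL2 (1.93) and IFIT3 (1.73). CXCL1 had 1.94, 1.04 and 0.791 CPM with TGF-β1 + dexamethasone and 0.350, 1.39 and 0.897 CPM with TGF-β1 alone, against 1.33, 0.744 and 0.910 CPM with dexamethasone alone and 8.49, 6.21 and 4.78 CPM in controls. It was thus already low with TGF-β1 alone. Its difference was lost without replicate 1 of every group (adjusted p = 0.0699 by edgeR). That of CCL2 was lost without the block (adjusted p = 0.256) and without replicate 3 of every group (adjusted p = 0.105). The differences of CXCL5 and IFIT3 held in these settings. Channel and receptor genes with positive differences were SCNN1A (1.69) and IL1R1 (2.01). The enzymes were SGPP2 (1.66), which degrades a sphingolipid signal, MGAT4A (2.60), which branches protein glycans, PFKP (0.53) of glycolysis, and DUSP1 (0.94). Transcription factors with positive differences were FOXQ1 (2.83), KLF4 (1.43), FOSL1 (1.10), BHLHE40 (0.89), FOXO1 (0.74) and NR3C1 (0.59). Signalling and growth genes were SPRY1 (2.69), CARD14 (2.49), WNT5A (1.88), CDK6 (1.22), CCND1 (0.78), IER3 (0.77), NFKBIA (0.63) and AKAP12 (0.39). The apoptosis genes PMAIP1 (0.80) and BCL2L1 (0.57) and the matrix, adhesion and actin genes COL8A1 (1.23), ITGB4 (0.58), SSH1 (0.55), RHOB (0.49), THY1 (0.46) and ROCK1 (0.41) had positive differences as well.

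Negative differences were seen for NKD1 (-3.29), an inhibitor of WNT signalling, PCDH9 (-3.23), GREB1 (-2.91), FIBIN (-2.90), MAOA (-2.85), KDR (-2.38) and SGK1 (-2.23). NKD1 had 6.48, 4.0 and 7.54 CPM with TGF-β1 + dexamethasone and 5.61, 2.47 and 7.12 CPM with TGF-β1 alone, against 2.96, 5.95 and 3.69 CPM with dexamethasone alone and 0.455, 0.466 and 0.290 CPM in controls. KDR had 163, 336 and 184 CPM with dexamethasone alone and 0, 0.621 and 0.193 CPM in controls, so the fold without TGF-β1 rests on a near-zero baseline, and its difference was lost without the block and in 4 of the 9 settings that left out libraries. Smaller negative differences were NPAS2 (-1.70), SNAI1 (-1.28), SPRY2 (-1.21), FOXD1 (-1.12), CDKN2B (-0.86), AREG (-0.77), TSC22D1 (-0.75), CEBPB (-0.67), FOXP1 (-0.54) and SLC2A1 (-0.41). Of the 49 genes 20 kept the call without the replicate block, and 26 kept it under every setting that left out a library or replicate.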

How the results depend on the processing

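Without the replicate block 686 genes were higher and 406 lower after TGF-β1, and the difference of the effects passed for 65 and 54 genes (37 and 28 at 2-fold or more); 52 of the 156 called genes chosen by the naming rule lost the call. With a minimum count of 50 the genes lower by at least 2-fold numbered 108, and with no filter on low counts 358 genes had a negative difference. Leaving out a library or a replicate number gave 817 to 1363 higher and 535 to 1191 lower genes, 327 to 407 and 151 to 192 at 2-fold or more, 142 to 607 positive and 88 to 359 negative differences, and 52 to 119 and 36 to 85 of these at 2-fold or more. The lowest counts came without replicate 1 of every group, the highest without replicate 2; without replicate 3 they were 944 higher, 609 lower, 176 positive and 100 negative. With libraries left out, the log2 fold changes after TGF-β1 of CXCL1 (-0.2588 to 0.7082), NKD1 (-0.05447 to 0.6244) and SPRY1 (-0.2834 to 0.8049) changed sign without passing the test in any setting: CXCL1 without TGF-β1 replicate 1 (-0.1252) or replicate 1 of every group, NKD1 without TGF-β1 replicate 2, and SPRY1 without TGF-β1 + dexamethasone replicate 1 (-0.06391) or replicate 1 of every group. The cause of these changes was not tested. The other alternatives kept the counts after TGF-β1 within 1.5 times and the direction of every named gene past the test: DESeq2 gave 1062 higher and 772 lower genes, limma-voom 1203 and 976, size factors in place of TMM 1284 and 1051, the 6 libraries alone 1613 and 1426, replicate 3 thinned to the depth of the others 1232 and 914, and library size alone 1053 and 1535. With that last scaling the median log2 fold change was -0.0607. At 6085495 to 19039860 counts a library, genes under the filter, PTGS2 among them, could not be tested, and effects on genes below 1 CPM rest on few reads.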
